A study of Mus musculus with 2 samples.

Results

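The clustered protocadherin genes are 59 of the 21935 gene symbols measured in these libraries. They were chosen by name alone, as every symbol of the *Pcdha*, *Pcdhb* and *Pcdhg* series, and comprise 15 *Pcdha*, 22 *Pcdhb* and 22 *Pcdhg* symbols, each with 1 transcript entry. RNA-Seq of polyadenylated RNA was carried out on the mouse embryonic stem (ES) cell line R1, which is grown on irradiated mouse embryonic fibroblasts with serum and LIF, the cytokine that sustains self-renewal. Both groups carried a lentiviral short hairpin RNA (shRNA) and were selected with puromycin, and both were cultured for 72 h without LIF to start differentiation. For differentiation without LIF the paper names dishes coated with gelatin or of low attachment, not feeder cells. The shLuc ES cells received a control shRNA against luciferase and the shKdm5b ES cells an shRNA against *Kdm5b*, which encodes a demethylase of histone H3 lysine 4. The comparison asks which transcripts differ between control and KDM5B-depleted cells during differentiation.

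Each condition has 1 library, so no difference below has a replicate check or a test, and the condition and the library cannot be told apart. The library totals were 78172700 reads for shLuc and 72702699 reads for shKdm5b. *Kdm5b* itself had 51378 reads in shLuc and 1377 reads in shKdm5b, where its RPKM (reads normalized to transcript length and to the library total) was 2.88% of that in shLuc. The pluripotency genes *Pou5f1* (619 RPKM in shLuc and 182 in shKdm5b), *Sox2* (237 and 272) and *Nanog* (90.2 and 85.0) were abundant in both libraries.

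Clustered protocadherins are cell surface proteins of the cadherin superfamily. The alpha, beta and gamma clusters lie next to each other on mouse chromosome 18. In the alpha and gamma clusters each variable first exon has its own promoter and encodes a whole extracellular and transmembrane part, and is spliced to constant exons that encode a shared cytoplasmic tail. The beta genes have no constant exons. Neurons choose a small set of the first exons at random, with CTCF and cohesin joining chosen promoters to distant enhancers, whereas the C-type first exons at the end of the alpha and gamma clusters are used more broadly. The resulting combination of isoforms gives a neuron an identity by which its own branches recognise and avoid each other.

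This gene structure decides what a read count means here. In the GENCODE M21 transcripts of the same accessions, the 22 beta genes had a single exon, and the alpha and gamma entries had 4 exons. The 3 constant exons span 2860 bases in 14 of the alpha entries and 2119 bases in most gamma entries. A read on a constant exon was therefore repeated in every entry of its cluster, and 22 gamma entries or 14 alpha entries are close to a single measurement. First exons also resemble each other. The share of windows of 50 bases that occur elsewhere in the transcripts had a median of 14.7% in alpha first exons, 3.48% in beta genes and 0.808% in gamma first exons. For ChIP-Seq, the paper states that reads mapping to several genomic sites were removed. How such reads were treated for RNA-Seq is not given in the sources used here.

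The gamma cluster gave the most RNA of the 3 clusters, the alpha cluster far less, and the beta genes were close to undetected. All 22 gamma entries had an RPKM above 1, as against 1 of 15 alpha entries (*Pcdha4-g*, described below) and 0 of 22 beta genes. The gamma entries ranged from 5.01 to 6.24 RPKM in shLuc and from 4.22 to 5.22 RPKM in shKdm5b. The other 14 alpha entries ranged from 0.188 to 0.219 RPKM and from 0.308 to 0.325 RPKM. The highest beta value was 0.156 RPKM. The 3 clusters kept this order in both libraries.

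**Figure D1:**
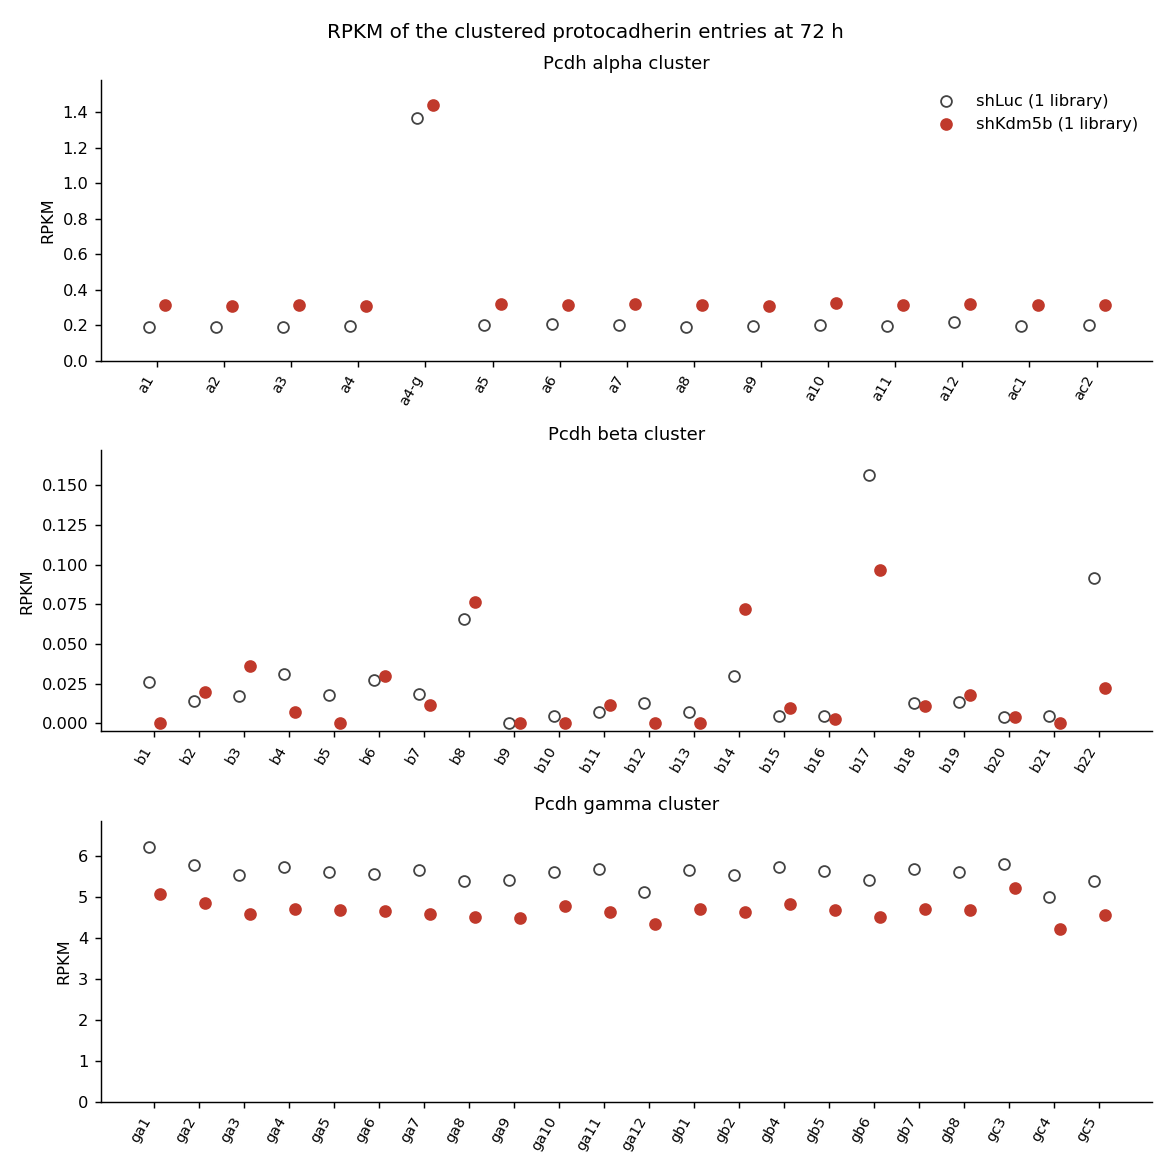
RPKM of each of the 59 entries, with 1 panel per cluster (each with its own RPKM axis, starting at or just under 0), open circles for the shLuc library and filled circles for the shKdm5b library. All 22 gamma entries lie lower in shKdm5b, all 15 alpha entries lie higher, and the beta genes go both ways at up to 0.156 RPKM.

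Of the 59 members, 41 had at least 20 reads over both libraries, namely all 15 alpha entries, all 22 gamma entries and 4 beta genes. On the log2(RPKM + 0.1) scale, 0 of these were more than 1.5-fold higher in shKdm5b and 1 (*Pcdhb22*) was more than 1.5-fold lower. Among all 15304 genes with as many reads, 14.8% were higher by this measure and 31.5% were lower. The count of 0 higher rests on the pseudocount, since the alpha entries lie close to the threshold. It was 13 with a pseudocount of 0.01, 12 with the libraries scaled to a median ratio of 0 and 15 after correction for GC content and length. The other 18 beta genes had too few reads to be counted either way. The median log2 ratio of shKdm5b to shLuc was -0.25 for the gamma entries, 0.48 for the alpha entries and -0.15 for the 4 beta genes, beside -0.22 for all genes, whose interquartile range ran from -0.74 to 0.30. The fold on this scale understates the difference of genes with few reads, which applies to all alpha and beta members.

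The gamma entries were all slightly lower in shKdm5b, by about as much as the median gene. They had 1969 to 2212 reads in shLuc and 1537 to 1779 in shKdm5b, and their log2 ratios lay between -0.30 and -0.15. The ranges of the 2 libraries did not overlap, but this is mostly the same set of reads counted 22 times. The entry with the fewest reads sets an upper limit for the reads on the constant exons. It was *Pcdhgc4* in shLuc, with 1969 reads, and *Pcdhga6* in shKdm5b, with 1537 reads. The log2 ratio of these reads per library total was -0.25 (95% interval -0.35 to -0.16), or 1.19-fold lower in shKdm5b. All intervals given for reads are exact Clopper-Pearson intervals, which cover counting error only and not the spread between cultures. Over the 2119 constant bases these reads amount to at most 11.9 RPKM in shLuc and 9.98 RPKM in shKdm5b. An interval wholly below 0, as all 22 gamma entries had, was found for 51.5% of all genes.

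The log2 ratio fell with GC content across the whole transcriptome, and the GC content of the clusters differed. Over 11535 genes with RPKM above 1, the Spearman correlation of the log2 ratio with the GC content of the transcript was -0.53, a description across genes of the same pair of libraries. Gamma transcripts had 51.0% to 55.4% GC, alpha transcripts 46.5% to 53.8%, and beta transcripts at least 39.1%. The gamma constant exons had 53.7% GC, where a lowess curve through all genes stood at -0.49. The alpha constant exons had 42.2% GC, where the curve stood at 0.35. With the curve taken out at the GC content of the whole transcript, the gamma median was 0.17, above 0, and the alpha median 0.50. Alpha reads may lie mostly on the constant exons, where the curve was higher than this correction takes it to be. What part of either cluster's ratio goes with GC content was not tested.

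**Figure D2:**
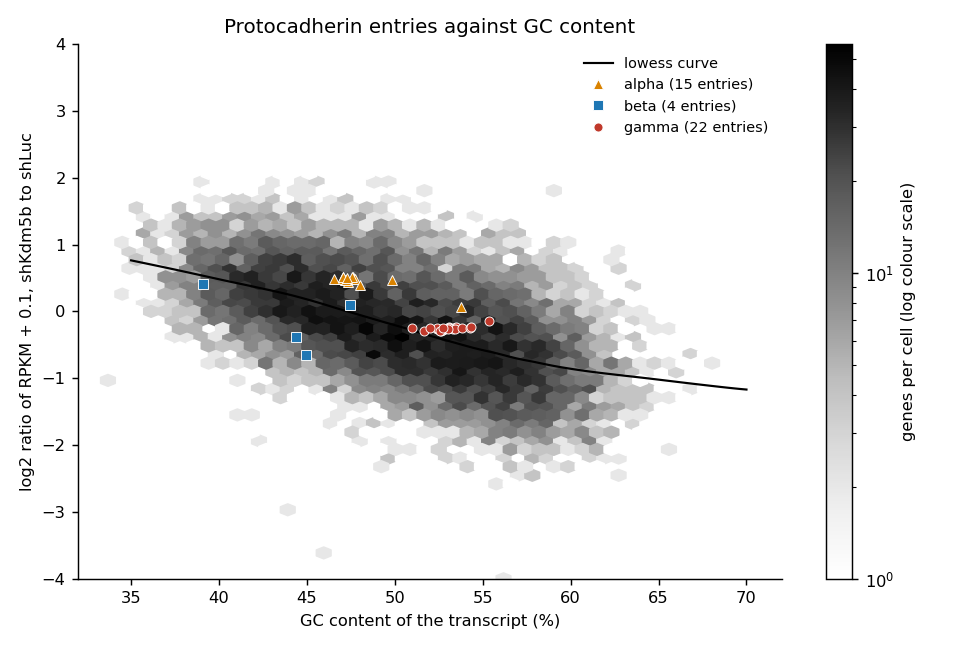
Log2 ratio of RPKM + 0.1, shKdm5b to shLuc, against the GC content of the transcript (%) for genes with RPKM above 1 (hexagons shaded by number of genes on a log colour scale) and for the 41 members with at least 20 reads, with the lowess curve in black. Gamma entries (circles) at 51.0% to 55.4% GC lie near or above the falling curve, most alpha entries (triangles) lie above it, and 2 of the 4 beta genes (squares) lie well below it.

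The gamma first exons themselves were compared by the reads an entry had beyond the entry with the fewest reads in the same library. Such reads cannot lie on the shared constant exons, and so are the least number on that entry's own first exon. Their comparison between libraries takes the lowest entry to have no reads on its own first exon in either library, which is not known, and reads on sequence shared by first exons may be counted more than once. The intervals cover neither. The total of these reads was 1252 in shLuc and 847 in shKdm5b, a log2 ratio of -0.46 (-0.59 to -0.33). Over the lengths of the first exons, they sum to 6.39 RPKM in shLuc and 4.60 RPKM in shKdm5b, below the upper limits of the constant exons. By definition the lowest entry has no such reads. No other entry tied with it, so that the count of 21 of 22 gamma first exons with such reads in each library was fixed in advance. The grouping of these reads into A-, B- and C-type first exons follows the gene names, but the contrast between the types was noticed after the values were seen.

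Counted in this way, the A-type and B-type first exons had fewer reads in shKdm5b. The 12 A-type first exons together had 847 reads in shLuc and 466 in shKdm5b, which was 1.69-fold lower per library total (log2 ratio -0.76, -0.92 to -0.59). The 7 B-type first exons had 233 and 113 reads, 1.92-fold lower (-0.94, -1.28 to -0.61). Of these 19 first exons, 10 had a counting interval below 0, 0 had one above 0 and 9 had one that held 0. Among all genes with 20 reads or more, 51.5% had an interval below 0 and 30.2% had one above 0. The direction of the A- and B-type sum depends on how many reads of the lowest entry lie on its first exon. The lowest entry was not the same gene in the 2 libraries, but *Pcdhgc4* and *Pcdhga6* were close in both. They had 1969 and 1971 reads in shLuc, and 1540 and 1537 in shKdm5b. With 22 of the lowest entry's reads on its first exon in shKdm5b and none in shLuc, the ratio would be 0. With 50 such reads in both libraries it would be -0.30, with 50 in shLuc only -1.71, and with 50 in shKdm5b only 0.61, above 0.

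*Pcdhga1*, the first of the gamma cluster, had the most reads of any first exon in shLuc. It had 243 reads beyond the lowest entry in shLuc and 140 in shKdm5b, a log2 ratio of -0.69. *Pcdhga11* followed among the A-type exons, with 126 and 54 reads (-1.12, -1.61 to -0.65). *Pcdhga7* had 97 reads in shLuc and 21 in shKdm5b (-2.10, -2.86 to -1.41). *Pcdhga11* and *Pcdhga7* were thus further below the shLuc library than *Pcdhga1*, although their differences from it were not tested. *Pcdhga10*, with 24 and 36 reads, had a log2 ratio of 0.69 (-0.10 to 1.50), and *Pcdhga12*, with 64 and 70 reads, one of 0.23 (-0.28 to 0.75). The direction of these was not resolved at this depth, nor was that of *Pcdhga2* (84 and 66 reads).

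Differences among the B-type first exons were not tested. *Pcdhgb1* had 24 reads beyond the lowest entry in shLuc and 4 in shKdm5b. *Pcdhgb5* had 21 and 3, *Pcdhgb6* had 14 and 3, and *Pcdhgb7* had 42 and 13, each with an interval below 0. *Pcdhgb2* (37 and 23), *Pcdhgb4* (42 and 33) and *Pcdhgb8* (53 and 34) had intervals that held 0. B-type first exons include those with the most shared sequence, with 17.9% of windows in *Pcdhgb2* and 16.8% in *Pcdhgb1* found elsewhere, so the gene from which their reads came is less certain.

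*Pcdhgc3*, a C-type first exon, had more reads in shKdm5b. It had 159 reads beyond the lowest entry in shLuc and 242 in shKdm5b, 1.64-fold higher per library total (log2 ratio 0.71, 0.42 to 1.01). Over the length of its first exon these are 0.792 RPKM and 1.30 RPKM. It held 12.7% (10.9% to 14.7%) of all such gamma reads in shLuc and 28.6% (25.5% to 31.7%) in shKdm5b, the highest share in that library. *Pcdhga1* held 19.4% (17.3% to 21.7%) and 16.5% (14.1% to 19.2%). The first exon of *Pcdhgc3* shares only 0.0794% of its windows with other transcripts, and with 56.8% GC it is the most GC-rich of the gamma first exons, where the curve over all genes stood at -0.69. That curve is over whole transcripts, and what part of the *Pcdhgc3* ratio goes with GC content was not tested.

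The other C-type gamma exons were scarce. *Pcdhgc4* had 0 reads beyond the lowest entry in shLuc, where it was itself the lowest, and 3 in shKdm5b. *Pcdhgc5* had 13 and 23 reads, with an interval that held 0 (log2 ratio 0.93, -0.11 to 2.03). The whole entries of these C-type genes did not show the pattern, since constant exons dominate them. The *Pcdhgc3* entry had 5.22 RPKM in shKdm5b and a log2 ratio of -0.15, the highest of the gamma entries but still below 0.

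These single ratios and shares depend on the lowest entry as well. With 50 of its reads on its first exon in both libraries, the log2 ratio would be 0.59 (0.33 to 0.85) for *Pcdhgc3*, -0.52 for *Pcdhga1*, -0.65 for *Pcdhga11* and -0.95 for *Pcdhga7*. Equal numbers cannot show whether the direction holds. With 50 reads in shLuc only, that of *Pcdhgc3* would be 0.32, and 101 reads in shLuc only would bring it to 0. The order of 2 entries within a library does not depend on the lowest entry. The whole *Pcdhga1* entry had more reads than that of *Pcdhgc3* in shLuc (2212 and 2128) and fewer in shKdm5b (1677 and 1779).

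**Figure D3:**
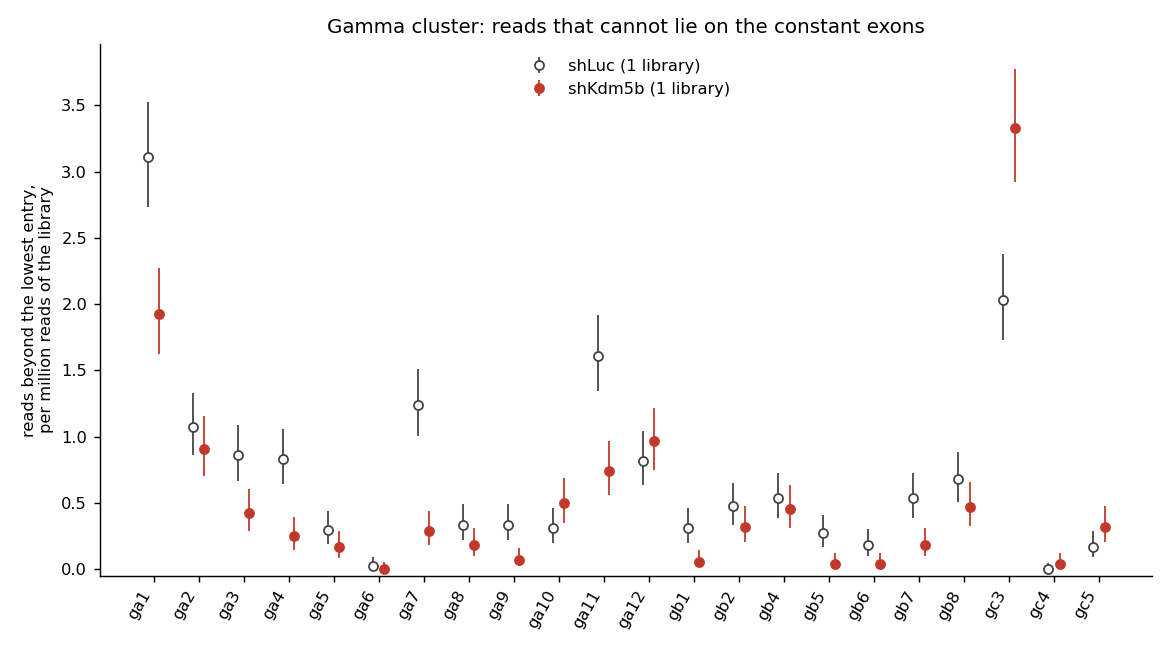
Reads of each gamma entry beyond the entry with the fewest reads, scaled to the library total (vertical axis, linear from 0), for shLuc (open) and shKdm5b (filled) in the order of the gene names. Bars are exact 95% Poisson intervals for each library, and take the lowest entry to have no first-exon reads. Pcdhgc3 is the only first exon whose shKdm5b interval lies wholly above its shLuc interval, while Pcdhga1, Pcdhga4, Pcdhga7 and Pcdhga11 are among those that show the reverse.

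The alpha cluster was low in both libraries, and each of its entries had more reads per library total in shKdm5b. *Pcdha1*, *Pcdha3* and *Pcdha8* had the fewest reads in shLuc, 78 each. In shKdm5b, 10 alpha entries had exactly 120 reads, so that none of them had reads beyond the lowest entry. *Pcdha1* had 0.190 RPKM in shLuc and 0.315 RPKM in shKdm5b. The 78 and 120 reads, the upper limit for the constant exons, gave a log2 ratio per library total of 0.73 (0.30 to 1.16), or 1.65-fold higher in shKdm5b. Over the 2860 constant bases they amount to 0.349 RPKM and 0.577 RPKM. The intervals of 14 alpha entries lay above 0, as did those of 30.2% of all genes, and they repeat these same reads.

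Reads beyond the lowest alpha entry were few. Summed over the 14 entries they were 45 in shLuc and 11 in shKdm5b. However, 13 of the 15 alpha first exons share over 5% of their windows with other transcripts. The same read may thus be counted in several entries, and no ratio of these sums alone is given. Added to the lowest entry, with the same limit, they came to 123 reads in shLuc and 131 in shKdm5b. The log2 ratio of that total was 0.20, with an interval that held 0 (-0.17 to 0.56). 11 alpha first exons had reads beyond the lowest entry in shLuc and 4 in shKdm5b. *Pcdha12* had the most in shLuc, 12 reads beyond the lowest entry as against 2 in shKdm5b. *Pcdha6* had 6 and 0. The C-type exons *Pcdhac1* (3 and 1 reads) and *Pcdhac2* (7 and 4 reads), which share no windows, had intervals that held 0, and their whole entries had 81 and 121 reads for *Pcdhac1* and 85 and 124 for *Pcdhac2*. Several entries had exactly 3 such reads in shLuc, and whether these are the same reads on shared sequence cannot be told from the counts.

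*Pcdha4-g* stands apart from the other alpha entries because it is a joint transcript. Its first exon is that of *Pcdha4*, and its remaining 446 bases start in the 3 gamma constant exons, with 0 alpha constant exons. It had 306 reads (1.37 RPKM) in shLuc and 299 reads (1.44 RPKM) in shKdm5b, a log2 ratio of 0.07. The whole *Pcdha4* entry had 81 and 120 reads, so that at least 225 and 179 reads of *Pcdha4-g* lay on the gamma constant bases, where they give 6.45 RPKM and 5.52 RPKM. The level of the entry is therefore mostly that of the gamma cluster, and it is no measure of an alpha to gamma joint transcript.

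The beta genes, which share no exons, had 142 reads in shLuc and 100 in shKdm5b over all 22 genes. The log2 ratio of these sums per library total was -0.40 (-0.79 to -0.02), 1.32-fold lower in shKdm5b. The sum moved with single genes, left out after their values were seen. Without *Pcdhb17* the ratio was -0.30 (-0.75 to 0.14), without *Pcdhb22* it was -0.23 (-0.64 to 0.17), and without both, with 80 and 72 reads, it was -0.05 (-0.53 to 0.43). Without *Pcdhb14*, which had more reads in shKdm5b, it was -0.60. The median log2 ratio of the 4 beta genes with enough reads, -0.15, became 0.09 without *Pcdhb17* or without *Pcdhb22*.

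*Pcdhb17* was the highest beta gene in both libraries, with 40 reads (0.156 RPKM) in shLuc and 23 reads (0.0967 RPKM) in shKdm5b, and its interval held 0 (log2 read ratio -0.69, -1.50 to 0.08). *Pcdhb22*, the last of the cluster, had 22 reads in shLuc and 5 in shKdm5b. Its log2 read ratio was -2.03 (-3.79 to -0.60), and -0.65 on the log2(RPKM + 0.1) scale. *Pcdhb14* had 8 and 18 reads, and its interval only just excluded 0 (1.27, 0.0013 to 2.68). *Pcdhb8* had 12 and 13 reads (0.22, -1.03 to 1.48). The 4 beta genes with enough reads thus went both ways.

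The remaining beta genes were at the limit of detection. 15 beta genes had 5 reads or fewer in both libraries. *Pcdhb9* had 0 reads in both, and *Pcdhb1*, *Pcdhb5*, *Pcdhb10*, *Pcdhb12*, *Pcdhb13* and *Pcdhb21* had 0 reads in shKdm5b only, with 1 to 5 reads in shLuc. A count of 0 allows up to 3 reads, which for *Pcdhb1* in shKdm5b is 0.0168 RPKM. *Pcdhb1* and *Pcdhb5* had 5 reads each in shLuc, and the interval of their log2 read ratio reached up to 0.23, so a difference was not detectable. The other genes with 0 reads had 3 or fewer in shLuc. Per library total, 12 beta genes had more reads in shLuc and 9 had more in shKdm5b.

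**Figure D4:**
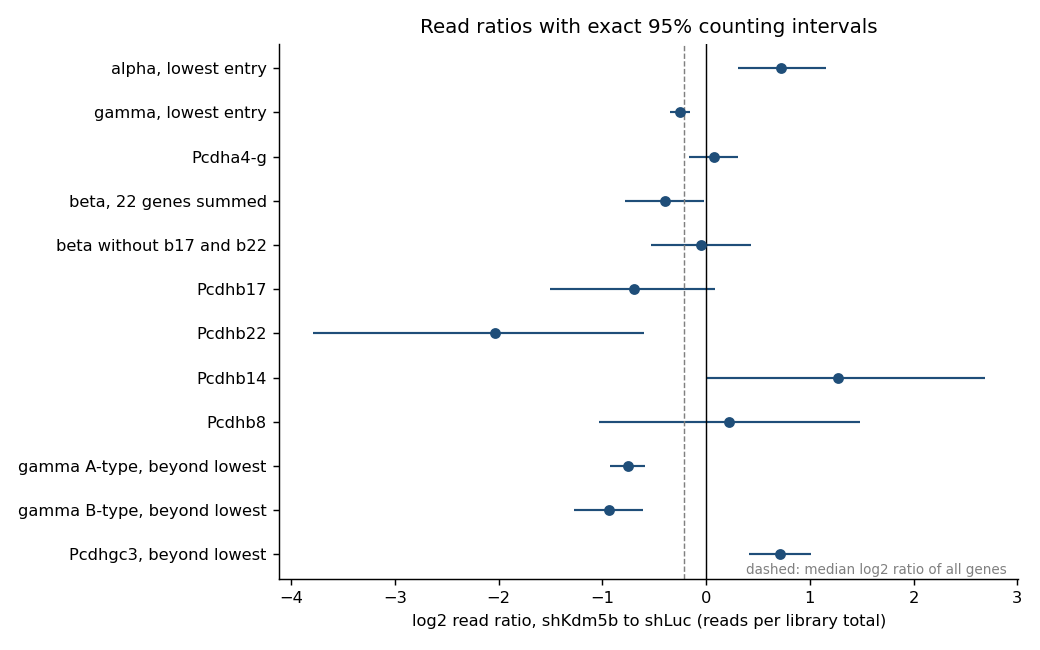
Log2 ratio of reads per library total, shKdm5b to shLuc (horizontal axis), for the clusters and for single members, with exact 95% counting intervals as bars. Pcdhgc3 and the lowest alpha entry lie above 0, the A-type and B-type gamma first exons lie below 0 when the lowest entry is taken to have no first-exon reads, and the beta sum without Pcdhb17 and Pcdhb22 is centred near 0.

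Several genes around the clusters differed between the libraries by more than 1.5-fold. Of 15 neighbours with RPKM above 1, 2 were more than 1.5-fold higher in shKdm5b, 6 were lower and 7 were within 1.5-fold, beside 16.3% higher and 31.8% lower among all genes with RPKM above 1. Their median log2 ratio was -0.53. *Taf7*, a subunit of the general transcription factor TFIID that lies between the beta and gamma clusters, had 13276 reads in shLuc and 17265 in shKdm5b (0.48). *Diap1* (now *Diaph1*), an actin nucleator next to the gamma cluster, had 12282 and 4940 reads (-1.20), and the histone deacetylase gene *Hdac3* beyond it had 3991 and 2095 reads (-0.82). On the alpha side, *Zmat2* had 6980 and 6144 reads (-0.08). Among the neighbours with RPKM above 1, *Ndufa2*, *Ik* and *Taf7* were above 0 and the others below it.

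**Figure D5:**
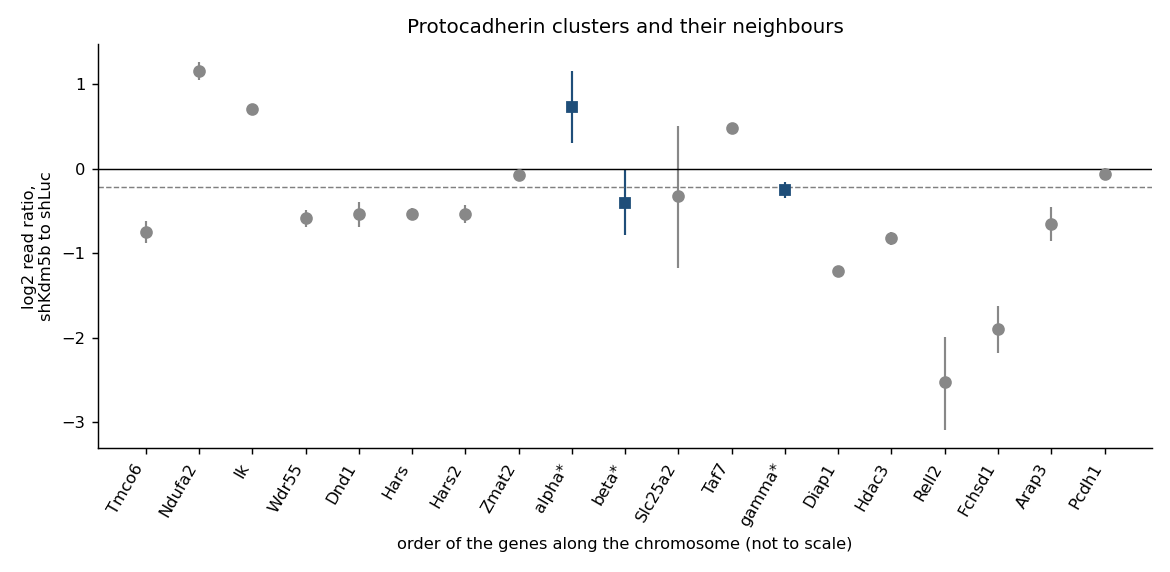
Log2 ratio of reads per library total, shKdm5b to shLuc (vertical axis), for the genes in their order along chromosome 18 (not to scale), with 95% counting intervals as bars and the median log2(RPKM + 0.1) ratio of all genes as a dashed line. Squares marked with an asterisk are the lowest alpha entry, the 22 beta genes summed and the lowest gamma entry. Ndufa2, Ik and Taf7 lie above 0, and Diap1, Hdac3, Rell2 and Fchsd1 lie far below it.

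Genes that act on promoter choice in these clusters were expressed in both libraries. Of 14 genes for CTCF, cohesin and its loaders and releasers, all with RPKM above 1, 3 were more than 1.5-fold higher in shKdm5b, 1 was lower and 10 were within 1.5-fold, with a median log2 ratio of 0.04. Among all genes with RPKM above 1 the shares were 16.3% higher and 31.8% lower. *Ctcf* had 62.0 RPKM in shLuc and 50.3 RPKM in shKdm5b. The genes past 1.5-fold were *Smc3* (0.60) and *Stag2* (0.61), which encode cohesin subunits, *Esco2* (1.25), which encodes a cohesin acetyltransferase, and *Mau2* (-1.93), which encodes a cohesin loader subunit.

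Genes for DNA methylation and silencing had a lower median ratio than all genes. Of 21 such genes with RPKM above 1, 1 was more than 1.5-fold higher, 8 were lower and 12 were within. Among all genes with RPKM above 1, 16.3% were higher and 31.8% lower. The median log2 ratio was -0.51 for the listed genes and -0.21 for all genes with RPKM above 1. The largest differences were those of *4933421E11Rik* (*Lrif1*, 1.34), *Trim28* (-1.72), *Ehmt2* (-1.33), *Daxx* (-1.23) and *Tet1* (-1.03). *Dnmt3b*, which encodes the de novo DNA methyltransferase that marks these promoters, had 249 RPKM in shLuc and 173 RPKM in shKdm5b. *Smchd1*, which encodes a silencing protein of the clusters, had 12.4 and 16.5 RPKM. Whether these levels bear on the clusters was not tested.

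Of 17 cytoplasmic partners and proteases of protocadherins with RPKM above 1, 4 were higher, 2 were lower and 11 were within 1.5-fold. Among all genes the shares were again 16.3% higher and 31.8% lower. The median log2 ratio of the partners and proteases was 0.05. They included *Pdcd10* (1.39), *Fyn* (0.80), *Marcks* (0.74) and *Adam10*, which encodes the protease that sheds protocadherins (0.64), and on the lower side *Axin1* (-1.10) and *Wasf2* (-0.84).

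Neurons are the usual site of clustered protocadherins, and fibroblasts served as feeder cells when the line was grown with LIF. Markers of both are therefore given beside the results, and the same shares of all genes (16.3% higher, 31.8% lower) apply to them. Of 13 neural markers with RPKM above 1, 2 were higher (*Neurod1*, 1.31, and *Nes*, 0.83), 4 were lower (*Tubb3*, -1.37, *Ncam1*, -0.85, *Sox3*, -0.85, and *Syp*, -0.83) and 7 were within 1.5-fold. The summed RPKM of all 19 neural markers was 270 in shLuc and 234 in shKdm5b, of which *Otx2* made up 149 and 111. *Dcx* and *Neurog2* had 0 reads in shKdm5b, with 2 and 1 reads in shLuc. Of 7 fibroblast markers with RPKM above 1, 1 was higher (*Twist1*, 1.80), 2 were lower (*Fbln2*, -1.26, and *Acta2*, -0.65) and 4 were within. The summed RPKM of all 18 was 81.9 and 95.4, mostly that of *Fn1* (44.7 and 44.5) and *Vim* (24.7 and 34.0). *Postn* and *S100a4* had 0 reads in shKdm5b, with 3 and 6 reads in shLuc. The part of either cell type in the protocadherin reads was not tested, and in bulk RNA fewer cells of a type and less RNA per cell cannot be told apart.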

How the data were processed

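For RefSeq transcript entries, the authors deposited whole-number read counts, RPKM values and the entry length. The submitters' processing notes name CASAVA 1.0, Bowtie 0.12.7 and the mm8 build. The counting program is not given in the sources used here. Deposited aligned reads were not used. Library totals were derived from count, length and RPKM of entries above 50 reads. The entry with the highest mean RPKM stood for a symbol. Ratios used log2(RPKM + 0.1), and calls needed 20 reads over both libraries and more than 1.5-fold. Exon structure and GC content came from GENCODE M21 (GRCm38), matched by accession.

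With 1 library per condition no test was made. edgeR 4.0.16 (R 4.3.3) was run only as an alternative, as an exact test at assumed dispersions of 0 and 0.04 with an FDR below 0.001. Members and gene lists were chosen with earlier results of these data known. The genes named were, per cluster, the 5 highest in mean RPKM, the 5 largest differences each way, the C-type members and members with 0 reads. Gamma and alpha first exons, pluripotency genes and some list members were named after their values were seen, and not every gene under the rule is named. The steps were tested on simulated data. The simulated cluster always held an entry with no first-exon reads, so the simulation could not test that assumption for the lowest entry. Python 3.11.15, pandas 2.3.3, SciPy 1.17.1 and statsmodels 0.14.6 (lowess, fraction 0.3) were used. No sequence is printed.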

Additional observations from a re-analysis of the deposited data

How the results depend on the processing

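No paired analysis was possible because there was only 1 library of each kind. For the same reason no replicate could be left out. Of 50 recomputed log2 ratios of the clusters and gamma first exons, 6 changed sign. The gamma median log2 ratio of -0.25 became 0.17 after GC correction, 0.34 after GC and length correction, -0.088 with the libraries scaled to a median ratio of 0, and -0.42 for reads beyond the lowest entry. The alpha median of 0.48 became 0.14 with a pseudocount of 1 and -0.14 for reads beyond the lowest entry. The 1 beta gene more than 1.5-fold lower became 0 with a pseudocount of 1, with at least 100 reads, with a 2-fold threshold and under edgeR at either dispersion, and 2 with a pseudocount of 0.01, where 1 beta gene was also higher. The beta median of -0.15 became 0.09 without *Pcdhb17* or without *Pcdhb22*. The 0 alpha and gamma entries more than 1.5-fold higher became 13 with a pseudocount of 0.01, 12 after scaling, 1 after GC correction and 15 after GC and length correction. The log2 read ratio of A- and B-type gamma first exons, -0.79, became -0.62 after scaling, -0.44 with the GC curve taken out, and -0.62 or -0.30 with 10 or 50 reads of the lowest entry placed on its first exon in both libraries. With 50 in shLuc only it was -1.71, and with 50 in shKdm5b only it turned to 0.61. That of *Pcdhgc3*, 0.71, became 1.40 with the GC curve taken out and 0.32 with 50 reads in shLuc only. The GC corrections take out a curve over all genes, read at the GC content of the whole transcript. For the A- and B-type sum and *Pcdhgc3* it was read at that of the first exon. Beyond that the cause was not tested. Leaving out single members and placing reads on the lowest entry were chosen after seeing the data. Depth limits the beta genes and alpha first exons most.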

Other observations

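Protocadherins and related cadherins outside the clusters were measured in the same libraries. Of 21 such genes, 16 had at least 20 reads over both libraries, of which 4 were more than 1.5-fold lower and 0 higher. The median log2 ratio of these 16 was -0.49. Among all genes with as many reads, 31.5% were lower and 14.8% higher, and the median was -0.22. *Celsr3*, a seven-pass cadherin gene, had 1462 reads in shLuc and 351 in shKdm5b (-1.73). The giant cadherin genes *Fat1* (14801 and 9725 reads), *Fat2* (126 and 30) and *Fat3* (191 and 79) also had fewer reads in shKdm5b. Among the delta protocadherins, *Pcdh18* had 67 and 24 reads, *Pcdh10* had 19 and 3, *Pcdh8* had 346 and 244, and *Pcdh19* had 52 and 46, while *Pcdh11x* had 1 and 10. *Pcdh1*, which lies on the far side of the gamma cluster, had 3541 and 3162 reads (-0.06). *Cdhr1* had more reads in shKdm5b, 553 and 618.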
